A study of Mus musculus with 8 samples.

Results

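The genes examined here encode 10 demethylases of the Jumonji C (JmjC) family, *Kdm2a*, *Kdm2b*, *Kdm3a*, *Kdm4a*, *Kdm4b*, *Kdm4c*, *Kdm5a*, *Kdm5b*, *Kdm5c* and *Kdm6b*. They were chosen by name, as the rows of the count files whose Ensembl identifier carries one of these symbols in the GENCODE M21 annotation of the mouse, and each of the 10 was found once among 54838 genes. JmjC demethylases use iron, oxygen and 2-oxoglutarate to remove methyl groups from lysines of histone tails. They share this chemistry with the prolyl hydroxylases (PHDs), which mark the hypoxia-inducible factor (HIF) alpha subunits for degradation. IOX5 is a small-molecule inhibitor of the PHDs. The study that produced these samples reports that it did not inhibit isolated KDM4A, KDM5B or KDM6B at the concentration tested. It reports no such assay for the other enzymes of the list. The comparison asked how mRNA of the 10 demethylases differed between IOX5-treated and vehicle-treated mouse leukemia cells. It measures mRNA and gives no information on the activity of the enzymes.

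RNA from 8 bulk samples had been sequenced, 4 treated with IOX5 and 4 with the vehicle dimethyl sulfoxide (DMSO), numbered 1 to 4 in each treatment. All 8 were leukemic stem cells from bone marrow labeled wild type, driven by an inducible MLL-AF9 fusion (iMLL-AF9), and the design text calls the same cells preleukemic. The transgene is doxycycline-inducible and was bred on a C57BL/6 background. The dose, the time of exposure and what the replicate numbers stand for were not given in the sources used here. No label says that the samples came from separate animals or cultures. Reads on *Xist* and on Y-linked genes, given with *Kdm5c*, differed between number 1 and the other numbers as between male and female cells. Number 1 therefore did not share its animal of origin with the other numbers. Whether those came from separate animals or cultures is not known, so that p-values measure the spread between these samples only.

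Reads on genes numbered 12343770 to 14116054 in the DMSO samples and 11351507 to 12708888 in the IOX5 samples. The progenitor markers *Kit*, *Cd34*, *Myb*, *Hoxa9*, *Meis1* and *Ptprc* summed to 1227 to 1396 CPM in DMSO (counts per 1000000 reads on genes, after TMM scaling) and 1368 to 1532 CPM in IOX5, whereas T cell and B cell markers stayed under 0.2 CPM in every sample. Of 8 HIF target genes listed as a check on the treatment, all 8 had a higher mean with IOX5 and 4 passed the test, among them *Ankrd37* (log2 fold change 1.38 ± 0.15 SE, adjusted p = 0.0143) and *Pdk1* (0.67 ± 0.079, adjusted p = 0.0157; edgeR's quasi-likelihood test with Benjamini-Hochberg adjustment over 12405 genes, as for every adjusted p of a gene below). Among all genes tested 0.774% were called higher and 52.8% had a log2 fold change above 0. The HIF target list was chosen with earlier results of these data known, so it is not an independent check. Samples that carried the same replicate number deviated together, so each call is also given from a fit that keeps the replicate number as a block. The pair numbered 1 stood apart from the other 6 samples in genes of the sex chromosomes, which touches *Kdm5c* and is described with that gene. Macrophage markers summed to 147.6 to 205.7 CPM in DMSO and 224.7 to 500.2 CPM in IOX5, megakaryocyte markers to 16.3 to 64.5 CPM and 38.9 to 117.7 CPM, granulocyte markers to 2545 to 4405 CPM and 3106 to 5117 CPM, and the 4 tested erythroid markers to 4.82 to 23.3 CPM and 8.53 to 40.3 CPM. None of these markers was called without the block, and with it 2 of the 5 tested macrophage markers, 3 of 4 megakaryocyte, 6 of 7 granulocyte and 2 of the 4 tested erythroid markers were called higher, as were 3 of the 6 progenitor markers, *Kit*, *Cd34* and *Myb*. *Cd34* was 23.2 to 40.4 CPM in replicate numbers 1 and 2 and 133.1 to 230.9 CPM in numbers 3 and 4. The macrophage marker *C1qa* had at most 10 reads in any sample. Stromal markers stayed at 1.80 to 5.15 CPM over both treatments. The part of these cell types in the results below was not tested, and in bulk RNA fewer cells of a type and less RNA per cell cannot be told apart.

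*Kdm3a* was higher in IOX5-treated cells, the only one of the 10 to pass the test without the block, and none was called lower. With the block, *Kdm3a*, *Kdm5b*, *Kdm4b* and *Kdm4c* were called higher and again none lower. These 4 and *Kdm2a* were also the 5 genes whose 4 IOX5 samples all lay above all 4 DMSO samples, while *Kdm2b*, *Kdm4a*, *Kdm5a*, *Kdm5c* and *Kdm6b* overlapped between the treatments. Among all 12405 genes tested, 0.774% were called higher and 1.25% lower without the block, and 11.2% higher and 9.43% lower with it. All 4 IOX5 samples lay above all 4 DMSO samples in 5.98% of genes and below them in 8.30%. The median log2 fold change of the 10 genes was 0.13, against 0.017 over all genes tested. Their counts together made up 0.0981% to 0.0991% of reads on genes in DMSO and 0.101% to 0.118% in IOX5.

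**Figure D1:**
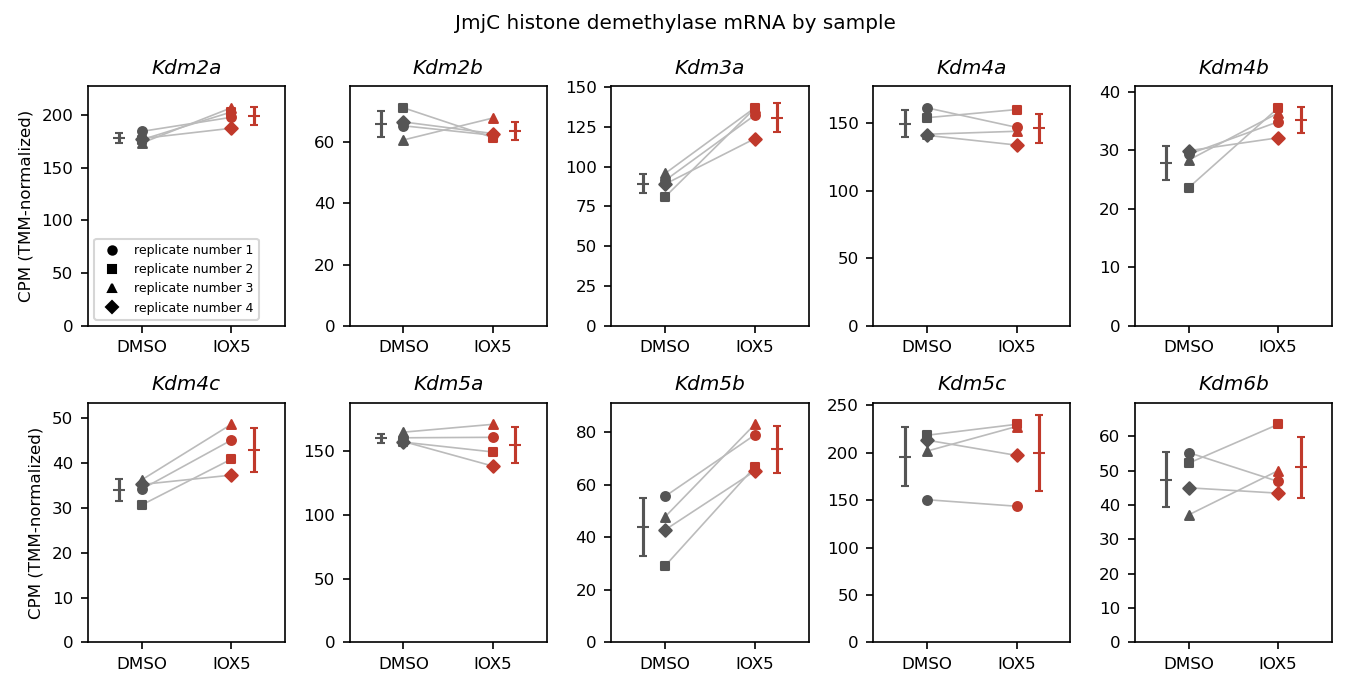
Normalized mRNA level (CPM, vertical axes from 0) of the 10 demethylase genes in the 4 DMSO samples (gray) and the 4 IOX5 samples (red), with lines joining samples of 1 replicate number and bars giving the mean ± SD. *Kdm3a* runs from 81.0 to 95.7 CPM in DMSO and from 117.5 to 136.9 CPM in IOX5, and *Kdm5c* is lowest in replicate number 1 of both treatments.

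Both genes with the largest log2 fold changes of the 10, *Kdm5b* and *Kdm3a*, had a promoter window in the RefSeq table of GRCm38.p6, and so did *Kdm2b*, *Kdm4a*, *Kdm4c* and *Kdm5c*, that is 6 of the 10. The 250 bases upstream of the start site are shown for 3 of the genes called higher with the block, 5′ to 3′ on the coding strand. Capitals mark the core of the HIF response element, ACGTG or GCGTG, searched on both strands. The windows lie at chr6:71632918-71633167 (minus strand, *Kdm3a*), chr1:134559928-134560177 (plus strand, *Kdm5b*) and chr4:74242247-74242496 (plus strand, *Kdm4c*).
Kdm3a: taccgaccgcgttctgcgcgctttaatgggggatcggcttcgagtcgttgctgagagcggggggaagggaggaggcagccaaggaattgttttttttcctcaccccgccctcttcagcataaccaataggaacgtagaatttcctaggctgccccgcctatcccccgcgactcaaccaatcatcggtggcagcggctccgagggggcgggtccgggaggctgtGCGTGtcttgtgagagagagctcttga
Kdm5b: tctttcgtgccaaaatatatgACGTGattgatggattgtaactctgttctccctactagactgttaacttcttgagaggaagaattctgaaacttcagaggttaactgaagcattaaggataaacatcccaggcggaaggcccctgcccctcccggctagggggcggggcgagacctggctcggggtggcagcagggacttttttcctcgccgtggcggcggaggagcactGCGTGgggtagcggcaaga
Kdm4c: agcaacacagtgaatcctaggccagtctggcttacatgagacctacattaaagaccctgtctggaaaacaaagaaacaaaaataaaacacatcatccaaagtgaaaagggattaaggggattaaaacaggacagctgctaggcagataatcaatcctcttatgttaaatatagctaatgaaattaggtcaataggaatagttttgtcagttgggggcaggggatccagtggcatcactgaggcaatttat
The *Kdm3a* window held 1 core, GCGTG, whose first base lies 27 bases before the start site. The *Kdm5b* window held 2, ACGTG at 229 bases and GCGTG at 19 bases before it. The *Kdm2b* window held 1, at 230 bases, and the letters were not found in the windows of *Kdm4a*, *Kdm4c* and *Kdm5c*. *Kdm2b* had 4 windows, *Kdm3a* 3 and *Kdm4c* 2, and only the one nearest the GENCODE start of the gene was searched. For *Kdm2b* that window's start site lay 724 bases from the GENCODE start. Of all 32851 RefSeq windows 38.6% held at least 1 core in their 250 upstream bases, and of the 11874 windows of genes tested here 56% did, with 27.7% holding 2 or more. The match is a description of the letters and says nothing of binding.

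KDM3A removes mono- and dimethyl marks from lysine 9 of histone H3 (H3K9), marks of silent chromatin, and its gene is a known HIF target. The study that produced these samples also counts *Kdm5b* among the HIF target genes, with increased expression after IOX5. *Kdm3a* (chr6:71588972-71632990, minus strand, GRCm38) measured 91.3, 81.0, 95.7 and 89.0 CPM in DMSO replicates 1 to 4 and 132.2, 136.5, 136.9 and 117.5 CPM in IOX5 replicates 1 to 4. The lowest IOX5 sample, replicate 4, stood above the highest DMSO sample, replicate 3. The log2 fold change was 0.55 ± 0.075 (SE, n = 4 per treatment, edgeR adjusted p = 0.0197), 46.5% higher with IOX5, with a 95% interval of 0.38 to 0.72. Within replicate numbers 1 to 4 the log2 ratios were 0.53, 0.75, 0.52 and 0.40, and the fit with the block gave an adjusted p of 0.000256 (edgeR). Without any 1 of the 4 DMSO samples, or without IOX5 replicate 3, the log2 fold change was 0.51 to 0.58 and the adjusted p 0.0542 to 0.0903 (edgeR), in fits of 7 samples that called 0 to 10 genes higher among all tested.

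The KDM5 enzymes remove di- and trimethyl marks from lysine 4 of histone H3 (H3K4), a mark of active promoters. Of the 3 genes of this subfamily among the 10, edgeR called only *Kdm5b*, and only with the block. The direct test of unequal change within the subfamily, given below, passed for no pair after adjustment. With these sample numbers no pair could pass it alone, whatever the size of the change, so it does not decide the question. *Kdm5b* (chr1:134560171-134635285, plus strand) measured 55.6, 29.2, 47.9 and 42.9 CPM in DMSO and 79.0, 66.8, 83.0 and 65.2 CPM in IOX5. DMSO replicate 2 was the lowest sample, and all IOX5 samples lay above all DMSO samples. At 0.74 ± 0.18 (SE) its log2 fold change was the largest of the 10, 67.5% higher with IOX5, and ranked 356 among the 12405 genes, with an adjusted p of 0.0676 (edgeR). With the block the log2 fold change was 0.77 ± 0.096 (adjusted p = 0.000247, edgeR). DESeq2, the program the study names for its comparison, called *Kdm5b* higher without the block (0.76, adjusted p = 0.00224, DESeq2). The log2 ratios within replicate numbers 1 to 4 were 0.51, 1.20, 0.79 and 0.61, so that number 2, with the low DMSO sample, gave the highest. Without number 2 the blocked log2 fold change was 0.63 (adjusted p = 1.05e-06, edgeR).

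*Kdm5a* (chr6:120364124-120444574, plus strand) measured 160.6, 157.2, 165.0 and 157.7 CPM in DMSO and 161.0, 149.5, 171.2 and 138.3 CPM in IOX5. The treatments overlapped, with the IOX5 samples lying on both sides of the DMSO samples. Its log2 fold change of -0.05 had a 95% interval of -0.21 to 0.12 (edgeR adjusted p = 0.760, and 0.612 with the block). Part of an exon lies opposite an exon of *Ccdc77*, which had 2892 reads against 15847 for *Kdm5a* over all samples, and whether strand was used in counting is not given in the sources used here.

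*Kdm5c* (chrX:152233020-152274535, plus strand), an X-linked gene known to escape X inactivation, measured 150.6, 218.5, 201.8 and 213.4 CPM in DMSO and 143.7, 230.1, 227.8 and 197.3 CPM in IOX5. Replicate number 1 was the lowest in both treatments, and no such gap separated DMSO from IOX5. The log2 fold change was 0.03 with a 95% interval of -0.35 to 0.40 (edgeR adjusted p = 0.948), which the block narrowed to -0.13 to 0.16 (adjusted p = 0.879). Without replicate number 1 the blocked value was 0.04 (adjusted p = 0.797, edgeR).

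The low *Kdm5c* of number 1 went with reads on its Y-linked relative *Kdm5d*, which had 727 reads in DMSO replicate 1, 654 in IOX5 replicate 1 and at most 1 read in each of the other 6 samples. *Kdm6a*, an X-linked demethylase of lysine 27 of histone H3 (H3K27), and its Y-linked relative *Uty* showed the same split. *Uty* had 507 and 625 reads in the samples numbered 1 and at most 1 elsewhere. *Kdm6a* measured 103.3 and 93.9 CPM in these samples against 154.5 to 191.6 CPM in the others. *Xist*, the RNA of the inactive X chromosome, looked up after the *Kdm5d* values were seen, had 19 and 1 reads in number 1 and 14676 to 21314 in each of the other samples. The sum of *Kdm5c* and *Kdm5d* was 201.9, 218.6, 201.8 and 213.4 CPM in DMSO and 196.1, 230.2, 227.8 and 197.3 CPM in IOX5, so that DMSO replicate 1 was level with DMSO replicate 3, and IOX5 replicate 1 was still the lowest IOX5 sample. The sum of *Kdm6a* and *Uty* remained lowest in number 1, at 139.1 CPM in DMSO and 143.9 CPM in IOX5. Since number 1 holds 1 sample of each treatment, this difference lies across both treatments and not between them.

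**Figure D2:**
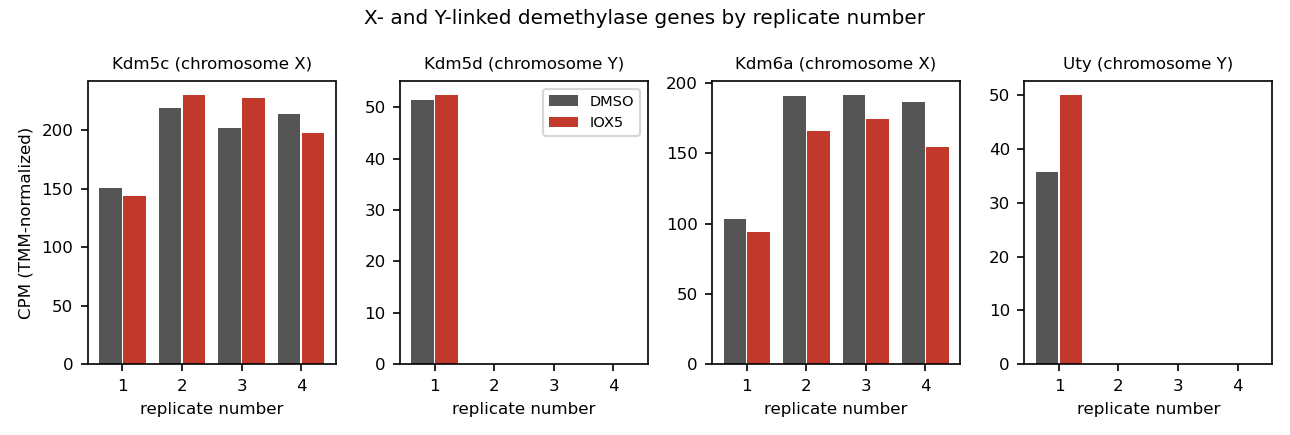
Normalized mRNA level (CPM) of the X-linked genes *Kdm5c* and *Kdm6a* and of their Y-linked relatives *Kdm5d* and *Uty*, 1 bar per sample by replicate number for DMSO (gray) and IOX5 (red). Both Y-linked genes have bars only in replicate number 1, where *Kdm5c* (150.6 and 143.7 CPM) and *Kdm6a* (103.3 and 93.9 CPM) are lowest.

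The KDM4 enzymes act on trimethyl marks of H3K9 and of lysine 36 of histone H3 (H3K36). *Kdm4b* (chr17:56326062-56402870, plus strand) measured 29.4, 23.6, 28.4 and 30.0 CPM in DMSO and 34.9, 37.3, 36.4 and 32.2 CPM in IOX5. The groups did not overlap, and replicate 4 gave the smallest distance, 30.0 against 32.2 CPM. Its log2 fold change was 0.34 ± 0.095 (SE, edgeR adjusted p = 0.0980) and passed the test with the block (0.34, adjusted p = 0.0223, edgeR). That call was lost without number 2 (log2 fold change 0.24, adjusted p = 0.0604, edgeR) and without number 3 (0.33, adjusted p = 0.107).

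*Kdm4c* (chr4:74242497-74405860, plus strand) measured 34.2, 30.6, 36.2 and 35.2 CPM in DMSO and 45.1, 40.9, 48.6 and 37.3 CPM in IOX5. The groups again did not overlap and IOX5 replicate 4 was again the nearest to the DMSO samples. The log2 fold change was 0.34 ± 0.098 (edgeR adjusted p = 0.107), and 0.33 with the block (adjusted p = 0.0129, edgeR), a call lost without number 1 (log2 fold change 0.30, adjusted p = 0.0650) and without number 3 (0.30, adjusted p = 0.102). *Kdm4a* (chr4:118136957-118180043, minus strand), the most abundant of the 3 per exon length, measured 161.1, 153.8, 141.6 and 140.8 CPM in DMSO and 146.7, 159.8, 143.8 and 133.6 CPM in IOX5. The treatments overlapped throughout, and the log2 fold change of -0.03 had a 95% interval of -0.20 to 0.13 (edgeR adjusted p = 0.843).

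KDM2A and KDM2B bind CpG islands and remove methyl marks from H3K36, and KDM2B also brings a Polycomb complex to these islands. *Kdm2a* (chr19:4314419-4398285, minus strand) measured 184.5, 176.6, 173.5 and 177.7 CPM in DMSO and 197.9, 202.9, 206.9 and 187.5 CPM in IOX5. All IOX5 samples lay above all DMSO samples, by a small margin. The log2 fold change of 0.16 ± 0.053 (11.6% higher) did not pass the test without the block (edgeR adjusted p = 0.147) or with it (0.0924). *Kdm2b* (chr5:122870665-122989823, minus strand) measured 65.2, 71.1, 60.6 and 66.5 CPM in DMSO and 62.1, 61.4, 67.8 and 62.7 CPM in IOX5, with overlapping treatments and a log2 fold change of -0.05 (95% interval -0.20 to 0.10, edgeR adjusted p = 0.703). Its exons lie in part opposite those of *Rnf34*, which had 4873 reads against 6502 for *Kdm2b*.

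KDM6B, also called JMJD3, removes methyl marks from H3K27, the mark set by Polycomb complexes. *Kdm6b* (chr11:69398508-69413675, minus strand) measured 55.3, 52.2, 37.1 and 45.0 CPM in DMSO and 46.8, 63.5, 50.0 and 43.4 CPM in IOX5. Numbers 2 and 3 were higher with IOX5 and numbers 1 and 4 lower. The log2 fold change of 0.10 had a 95% interval of -0.24 to 0.45 (edgeR adjusted p = 0.746, and 0.480 with the block).

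**Figure D3:**
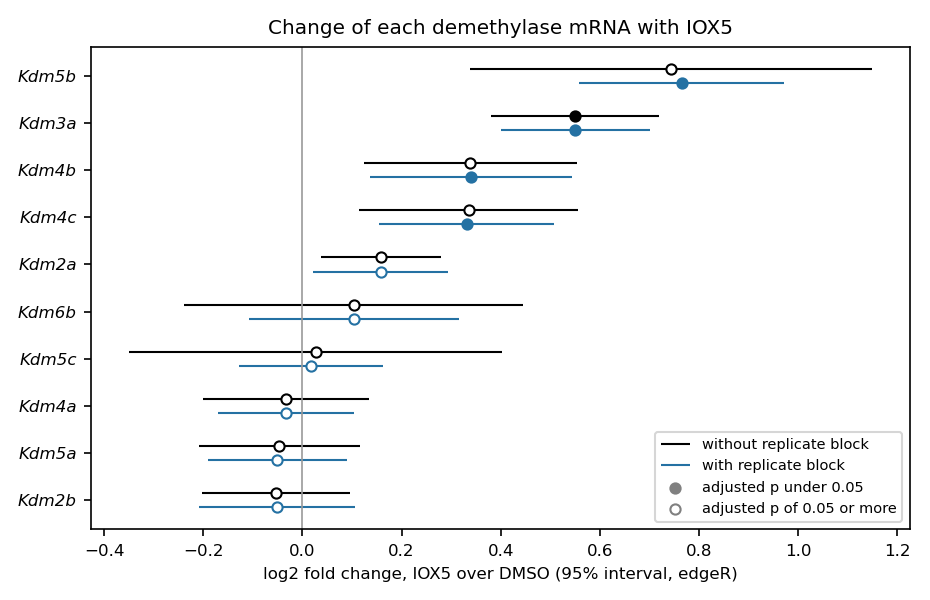
Log2 fold change of IOX5 over DMSO for each of the 10 genes with its 95% interval from edgeR, without (black) and with (blue) the replicate block, where filled circles mark an adjusted p under 0.05. Without the block *Kdm3a* (0.55) is the only filled circle, and with it *Kdm5b* (0.77), *Kdm3a*, *Kdm4b* (0.34) and *Kdm4c* (0.33) are filled.

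IOX5 replicate 4 was the lowest of the 4 IOX5 samples for 8 of the 10 genes, and DMSO replicate 2 the lowest DMSO sample for 5 of them, *Kdm3a*, *Kdm4b*, *Kdm4c*, *Kdm5a* and *Kdm5b*. Over all genes tested IOX5 replicate 4 was the lowest IOX5 sample in 28.4% and DMSO replicate 2 the lowest DMSO sample in 31.3%. *Kdm2a*, *Kdm3a*, *Kdm4b*, *Kdm4c* and *Kdm5b* were higher with IOX5 in each of the 4 replicate numbers, as were 21.3% of all genes tested, and 19.8% were lower in each.

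Whether genes of 1 subfamily moved unequally was tested directly on the log2 ratio of 2 genes within each sample, which does not depend on library scaling. With 4 samples against 4 the smallest exact two-sided permutation p is 0.0286. After adjustment over 7 pairs this p stays above 0.05 unless several pairs reach it together, so no pair could pass alone. The *Kdm5b*/*Kdm5a* log2 ratio was -1.53, -2.42, -1.78 and -1.88 in DMSO and -1.03, -1.16, -1.04 and -1.08 in IOX5. All 4 IOX5 values lay above all 4 DMSO values, and the mean difference was 0.82 (exact permutation p = 0.0286, adjusted p = 0.0667 over 7 pairs). The *Kdm4b*/*Kdm4a* ratio also did not overlap, with a difference of 0.37, nor did the *Kdm2a*/*Kdm2b* ratio, with a difference of 0.21, and both had the same exact permutation p and adjusted p as the first. *Kdm4c*/*Kdm4a* differed by 0.36 with overlap (exact permutation p = 0.0571, adjusted p = 0.100), higher in 4 of 4 replicate numbers. *Kdm5b*/*Kdm5c* differed by 0.76 (exact permutation p = 0.114, adjusted p = 0.160) and was higher in 4 of 4 numbers, by 0.57 to 1.12. *Kdm4c*/*Kdm4b* differed by -0.01 (exact permutation p = 0.829) and *Kdm5c*/*Kdm5a* by 0.07 (exact permutation p = 0.657). After adjustment 0 of the 7 ratios passed 0.05, and 3 had an unadjusted exact permutation p under it. This test does not use the pairing by replicate number. Within numbers, *Kdm5b*/*Kdm5a*, *Kdm5b*/*Kdm5c*, *Kdm4b*/*Kdm4a*, *Kdm4c*/*Kdm4a* and *Kdm2a*/*Kdm2b* were higher with IOX5 in 4 of 4, but an exact sign-flip permutation test over 4 pairs cannot reach a two-sided p of 0.05.

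**Figure D4:**
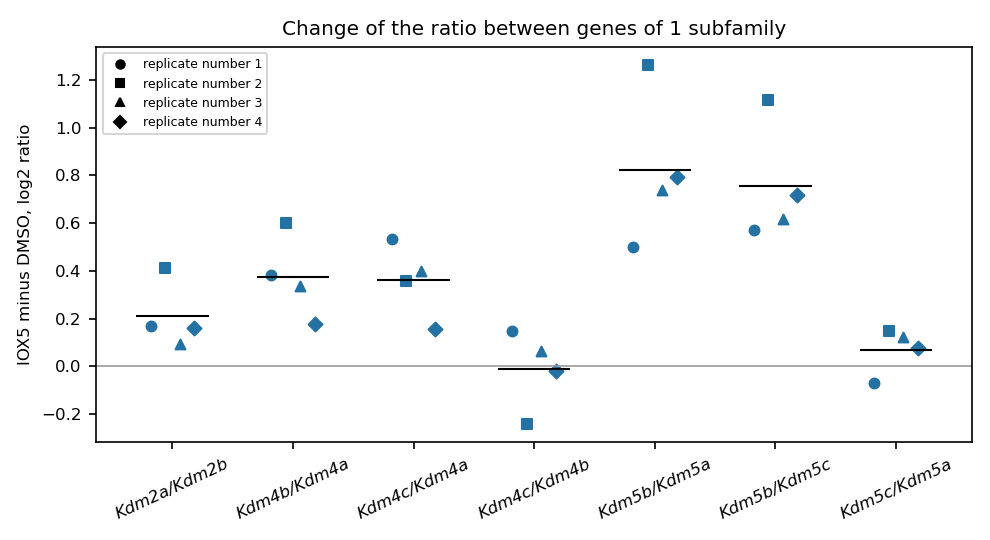
Difference between IOX5 and DMSO in the log2 ratio of 2 genes of 1 subfamily, by replicate number (symbols), with the difference of the means as a black line, for the 7 pairs. *Kdm5b*/*Kdm5a* lies between 0.50 and 1.26 in the 4 numbers, whereas *Kdm4c*/*Kdm4b* lies between -0.24 and 0.15.

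Levels were compared between genes per exon length, as CPM per kilobase of exon union (RPKM, mean ± SD, n = 4). In DMSO the order ran from *Kdm5c* (27.6 ± 4.38 RPKM) and *Kdm4a* (25.8 ± 1.71 RPKM), whose ranges overlapped, to *Kdm2a* (12.3 ± 0.322 RPKM), *Kdm5a* (11.3 ± 0.254 RPKM) and *Kdm3a* (10.9 ± 0.748 RPKM), of which *Kdm5a* and *Kdm3a* overlapped. *Kdm6b* (6.82 ± 1.16 RPKM), *Kdm2b* (6.06 ± 0.396 RPKM), *Kdm4c* (5.85 ± 0.418 RPKM) and *Kdm4b* (5.69 ± 0.586 RPKM) overlapped each with the next. *Kdm5b* (2.65 ± 0.672 RPKM) was below the other 9 without overlap. This place depends on the exon union, 16555 bases for *Kdm5b*, 5823 for *Kdm4c* and 4895 for *Kdm4b*. In CPM the DMSO mean of *Kdm5b* (43.9) was above those of *Kdm4c* (34.1) and *Kdm4b* (27.8) only, with overlapping ranges. Which of the annotated exons were expressed was not tested. With IOX5, *Kdm3a* had a mean of 15.9 ± 1.10 RPKM and stood above *Kdm2a* (13.8 ± 0.581 RPKM) in the order of means, and *Kdm5b* at 4.44 ± 0.533 RPKM was still the lowest.

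**Figure D5:**
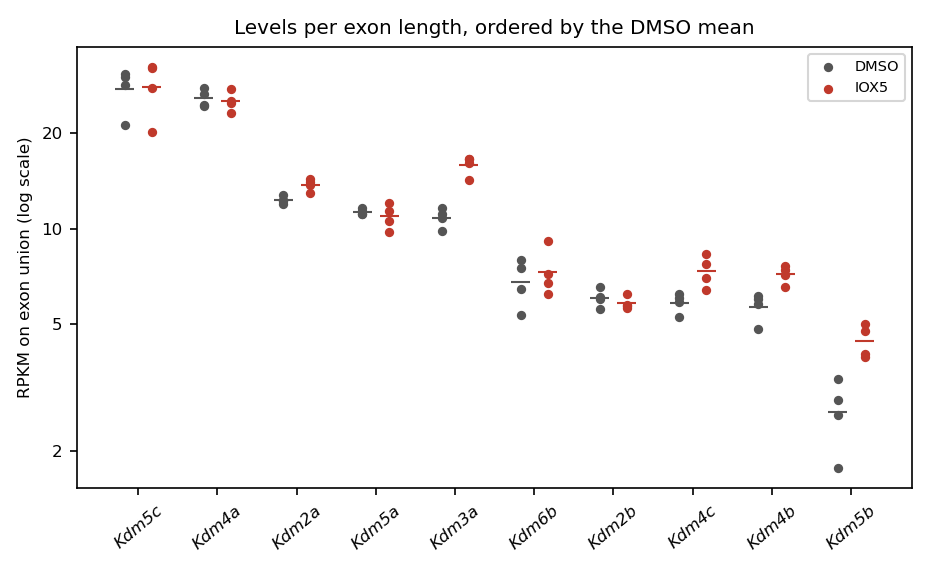
Level per exon length (RPKM, log scale) of the 10 genes in the 4 DMSO (gray) and 4 IOX5 (red) samples, ordered by the DMSO mean, with a line at each mean. *Kdm5b* is lowest in both treatments, with means of 2.65 and 4.44 RPKM, and the mean of *Kdm3a* moves from 10.9 to 15.9 RPKM.

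The other JmjC genes on the list numbered 21, and 16 of them had enough reads to be tested. None was called in either direction without the block, and with it 1 was called higher and 3 lower, against 11.2% and 9.43% of all genes tested. The 11 with histone substrates or close relatives of such enzymes gave 7 tested genes with a median log2 fold change of -0.12, and 6 of the 7 had a log2 fold change below 0, whereas 52.8% of all genes tested had one above 0. *Jarid2*, a catalytically inactive JmjC protein that accompanies the H3K27 methyltransferase complex PRC2, measured 108.8, 134.9, 97.3 and 101.0 CPM in DMSO and 87.1, 110.4, 80.0 and 74.1 CPM in IOX5. It was lower with IOX5 in 4 of 4 replicate numbers although the treatments overlapped, and its log2 fold change was -0.33 (edgeR adjusted p = 0.239, and 0.00284 with the block). *Kdm7a*, which encodes a demethylase of H3K9 and H3K27, had a log2 fold change of -0.28 (adjusted p = 0.229, and 0.0287 with the block, edgeR). *Kdm6a* had -0.19 (adjusted p = 0.699, and 0.0478 with the block, edgeR). Among JmjC genes with other substrates, *Jmjd6*, a lysyl hydroxylase gene, measured 49.9 to 57.6 CPM in DMSO and 59.0 to 65.3 CPM in IOX5. The treatments did not overlap, and its log2 fold change was 0.22 (edgeR adjusted p = 0.114, and 0.0390 with the block). The exons of *Jmjd6* lie in part opposite those of *Mettl23*, which had 1228 reads against 5844 for *Jmjd6*. *Hif1an*, which encodes the HIF asparaginyl hydroxylase FIH, had -0.12 (adjusted p = 0.416, and 0.176 with the block, edgeR). *Kdm4d*, *Kdm5d*, *Uty*, *Hr* and *Jmjd7* were not tested for lack of reads or, for the Y-linked pair, of reads in enough samples. *Kdm1a* and *Kdm1b*, the flavin-dependent demethylases outside the JmjC family, had log2 fold changes of 0.04 and -0.07, and neither was called in either fit.

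The genes that write the marks which these demethylases erase, and the partners of KDM2B and KDM5, were all tested, 37 with *Kdm1a* and *Kdm1b* included. Without the block 1 was called higher and 1 lower, and with it 3 were called higher and 7 lower, against 11.2% higher and 9.43% lower among all genes tested. *Nsd2*, which encodes an H3K36 dimethyltransferase, measured 250.9, 269.9, 278.3 and 283.4 CPM in DMSO and 196.2, 197.1, 223.9 and 209.7 CPM in IOX5. No IOX5 sample reached the lowest DMSO sample, and the log2 fold change was -0.39 (edgeR adjusted p = 0.0286). *Setd2*, the gene of the enzyme that trimethylates H3K36, had -0.35 (adjusted p = 0.0953, and 0.00354 with the block, edgeR) and *Nsd1* had -0.24 (adjusted p = 0.133, and 0.0294 with the block, edgeR). The other two H3K36 methyltransferase genes on the list, *Nsd3* and *Ash1l*, were called in neither fit, and the 5 had a median log2 fold change of -0.24.

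Of the H3K4 methyltransferase genes, *Setd1a* was called lower with the block (-0.27, adjusted p = 0.0279, edgeR), and of those for H3K9, *Suv39h1* (-0.23, adjusted p = 0.0343) and *Suv39h2* (-0.35, adjusted p = 0.0272) were. *Ezh1*, the gene of 1 of the catalytic subunits of PRC2, was called higher with the block (0.34, adjusted p = 0.00713, edgeR) and had all IOX5 samples, 38.1 to 48.2 CPM, above the DMSO samples, 32.9 to 37.6 CPM. *Ezh2*, the gene of the other catalytic subunit, measured 165.4 to 187.8 CPM in DMSO and 139.0 to 168.8 CPM in IOX5, lower in 4 of 4 replicate numbers, with a log2 fold change of -0.17 that passed in neither fit (edgeR adjusted p = 0.247, and 0.124 with the block). *Sin3b*, a scaffold of histone deacetylase complexes with which KDM5A is known to associate, measured 95.5 to 102.6 CPM in DMSO and 120.6 to 133.4 CPM in IOX5, with a log2 fold change of 0.35 (edgeR adjusted p = 0.0254, and 0.00222 with the block). Among the partners of KDM2B, *Bcorl1* was called higher (0.32, adjusted p = 0.0493) and *Usp7* lower (-0.20, adjusted p = 0.0491) with the block only (edgeR).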

How the data were processed

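Reads of mouse poly(A) RNA (directional library, single end) had been trimmed with cutadapt 1.18, aligned to GRCm38 with HISAT2 2.2.1 and counted per gene with htseq-count (HTSeq 2.0.1) by the authors. The deposited values were raw counts per gene, 1 file per sample. Which annotation release was counted, and whether by strand, is not given in the sources used here. Unassigned reads (20.6% to 22.6%, 5 summary lines per file) were left out. Symbols, positions and exon lengths came from GENCODE M21, which matched 54723 of 54838 identifiers. Counts were filtered (filterByExpr), normalized by TMM and fitted with edgeR 4.0.16 in R 4.3.3 (quasi-likelihood, Benjamini-Hochberg over 12405 genes, threshold 0.05) on all 8 samples without covariates, after the procedure had been tested on simulated data. DESeq2 1.42.0, other scalings, other filters, a replicate block and leaving out samples were alternatives. Ratios used log2 CPM with a prior count of 2 and an exact permutation test over 70 assignments. Samples with the same number correlated in their deviations from the treatment means (Pearson r across genes 0.758, 0.744, 0.732 and 0.636 for numbers 1 to 4, against at most 0.212 for numbers 1 and 2 and 0.685 for numbers 3 and 4 with another number), so the numbers were taken to pair the samples. This pairing comes from the data, as the labels do not say what the numbers mark. No 2 samples of the same treatment agreed within sampling noise, and pairs across treatments were not compared in this way.

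The demethylases and gene lists were chosen with earlier results of these data known. All 10 demethylases were named, and of the listed relatives, writers and partners those called with or without the block. Other JmjC genes and *Kdm1a* and *Kdm1b* could be named without a call. *Ankrd37*, *Pdk1*, *Ezh2*, *C1qa*, *Kit*, *Cd34*, *Myb* and *Xist* were named after their values were seen.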

Additional observations from a re-analysis of the deposited data

Results flagged for a closer look

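*Kdm6a* in DMSO replicate 1 measured 103 CPM against 186 to 192 CPM in the other 3 DMSO samples. Its gap to the nearest sample took a share of 0.942 of the group's range, above Dixon's critical value of 0.829 for 4 samples. It was 1 of 52 groups tested, and chance alone gives a gap above the critical value in about 1 group in 20. *Kdm6a* was also lowest in replicate 1 among the IOX5 samples, at 93.9 CPM against 154.5 to 174.2 CPM. Replicate number 1 of both treatments held nearly all reads of the Y-linked genes *Kdm5d* and *Uty*.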

How the results depend on the processing

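The number of demethylases called higher was 1 of 10 with edgeR without the block, 4 with the replicate block, 5 with DESeq2 (*Kdm2a* in addition, adjusted p = 0.0217), 4 with DESeq2 and the block, and 4 with numbers 3 and 4 joined as 1 level of the replicate block, a setting chosen after seeing the data. It was 0 to 1 when 1 sample was left out (0 without any of the DMSO samples or without IOX5 replicate 3) and 2 to 4 when 1 number was left out of the block (2 without number 3). *Kdm3a* and *Kdm5b* passed in each of these blocked fits. No demethylase was called lower under any alternative. The replicate block changed no other call among the 10. In the same order of settings (block, DESeq2, DESeq2 with block, joined numbers), the other JmjC genes called higher numbered 1, 1, 0 and 1 and those called lower 3, 0, 1 and 3. Writers and partners called higher numbered 3, 2, 2 and 3 (0 to 2 with 1 sample left out), and called lower 7, 4, 3 and 7 (0 to 1 with 1 sample left out, 0 with no filter on low counts). With 1 number left out of the block, the other JmjC genes called higher numbered 0 to 1 and lower 1 to 2, and writers and partners called higher 1 to 3 (1 without number 3) and lower 2 to 7 (2 without number 3, 3 without number 1). Genes called higher among all tested numbered 1394, 489, 952 and 1438 (0 to 130 with 1 sample left out), and called lower 1170, 602, 787 and 1216 (0 to 333, and 73 with no filter). 3 of the fits with 1 sample fewer called 0 genes. Those lacking the third or the fourth DMSO sample or the third IOX5 sample had 1969, 1846 and 2111 genes at an unadjusted p under 0.05, of which 4, 5 and 5 were demethylases. Leaving out 1 sample turned the direction of the log2 fold changes near 0, which ranged from -0.0788 to 0.0064 for *Kdm4a*, -0.0984 to 0.0033 for *Kdm5a*, -0.0813 to 0.1559 for *Kdm5c* and -0.0194 to 0.1857 for *Kdm6b*. In the block, leaving out 1 number gave -0.1227 to 0.0023 for *Kdm2b*, -0.0360 to 0.0648 for *Kdm5c* (-0.0010 without number 2) and -0.0019 to 0.2153 for *Kdm6b*. None of these was called, and the cause was not tested. With 1 sample left out no permutation p is given for the ratios, only their differences. These differences kept their sign except *Kdm4c*/*Kdm4b* and *Kdm5c*/*Kdm5a*. Other scalings moved the median log2 fold change of all genes from 0.017 to at most 0.035.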
